A study of Homo sapiens with 24 samples.

Results

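The B cell receptor and surface coreceptor genes described here are 9: the receptor's signal chains CD79A and CD79B, the coreceptors and surface proteins CD22, CD72, FCER2 (CD23), CR2 (CD21) and MS4A1 (CD20), and the signalling proteins BLNK and BTK inside the cell. They were taken as the probes that the platform annotation gives to these symbols, which were 17 of the 47322 probes on the array. At least 1 probe was detected on every array of at least 1 group for 8 of the 9 genes (13 of the 17 probes), and these 8 were tested among 10246 genes in all. CR2 was the gene without such a probe.

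A B cell senses antigen through membrane immunoglobulin, which has almost no cytoplasmic part and signals through the CD79A and CD79B chains bound to it. Tyrosine motifs in these chains recruit the kinase SYK, the adaptor BLNK gathers BTK and phospholipase C gamma around it, and the signal runs on to calcium and NF-kB. CR2 lowers the threshold of this signal and CD22 and CD72 raise it by recruiting the phosphatase SHP-1, while MS4A1 and FCER2 are surface proteins whose level changes with the state of the B cell.

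RNA came from P493, a line of human B cells carrying a MYC transgene that tetracycline represses, so every group is the same single line. Cells that received MST-312, an inhibitor of telomerase, had 48 h of tetracycline together with the drug, were then released into medium that lacked tetracycline and still contained MST-312, and were sampled 0, 4, 8 and 24 h later. Untreated P493 cells carry the same MYC transgene and were sampled at the same 4 times. The labels leave their tetracycline schedule unstated, so a difference in schedule and MST-312 cannot be told apart wherever the treatments are compared. For untreated cells "release" below means only the release time in the labels. Each of the 8 groups had 3 arrays. Whether these were separate cultures is not stated, and p-values then measure only the spread between arrays, which may be technical.

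Between 16254 and 17959 probes were detected per array. MYC rose after release in both treatments, by 0.70 to 0.94 on the log2 scale in untreated cells and by 1.07 to 1.31 in MST-312 cells. Of 7 markers of the B lineage outside the 9 genes, 5 were detected on all arrays of a group (EBF1, POU2AF1, CD40, HLA-DRA and CD74). The 6 of these 7 markers on the array, detected or not, were summed as raw intensity. The sum was lower with MST-312, at 35398.8 to 37285.9 against 59941.8 to 77734.7 at 0 h and at 19697.3 to 24648 against 48402.9 to 58814.5 at 24 h. Only CD3G and CD2 of 7 T cell markers passed detection, with the 7 summing to 703.6 to 1019.5 over all arrays. Of 6 monocyte markers 4 passed (CD14, LYZ, CD68 and FCGR3A), with all 6 summing to 1625.5 to 3059.3. The 5 plasma cell markers on the array all passed. Their sum was 10830.7 to 13221.7 in untreated cells at 0 h and 14745.1 to 17387.8 at 24 h, and with MST-312 it was 12233.3 to 14958.7 at 0 h and 9904.2 to 10928.3 at 24 h. Of 6 epithelial and fibroblast markers 3 passed (EPCAM, COL1A1 and VIM), while KRT8, KRT18 and COL1A2 did not. All 6 summed to 14763 to 18905.1 and 12351.9 to 13929.5 in untreated cells at 0 and 24 h. With MST-312 the sums were 11425.3 to 12967 and 9122.9 to 9987.2. These sums were not split by marker, so they do not show that epithelial cells or fibroblasts were present. The part of these marker levels in the results below was not tested. In bulk RNA, fewer cells that express a gene and less RNA per cell cannot be told apart.

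Levels below are log2 intensities after background correction and quantile normalization, means are given ± SD over 3 arrays, and differences are on the log2 scale ± SE from 1 limma model over all 24 arrays. A difference passed at an adjusted p below 0.05. A level is compared only between arrays of the same probe. For each gene the brightest probe stands for the gene unless another is named.

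Most of the set was lower at the later times than at 0 h in both treatments. At 24 h against 0 h, 7 of 8 genes fell in untreated cells (59.5% of all tested genes were called there, 30.5% as lower and 29.0% as higher), and BLNK was the gene that did not pass. The same count, 7 of 8 lower with BLNK not passed, held in MST-312 cells (51.0% of all genes called, 26.5% as lower). The members' median change was -1.46 in untreated and -0.72 in MST-312 cells. Over all genes the medians of every comparison lay between -0.04 and -0.01, and quantile normalization, which gives all arrays the same distribution, holds them near 0. Under median scaling the all-gene medians at 24 h against 0 h were 0.08 in untreated and 0.07 in MST-312 cells. At 4 h, 5 of 8 genes had fallen in untreated cells (44.9% called, 22.1% as lower) and 3 of 8 in MST-312 cells (36.1% called, 18.0% as lower). At 8 h the counts were 5 of 8 lower in untreated cells (51.2% called, 26.4% as lower and 24.8% as higher) and 5 lower with 1 higher in MST-312 cells (40.9% called, 22.0% as lower and 18.9% as higher). The count of 3 at 4 h in MST-312 cells was 1 without replicate 2 of MST-312 at 0 h or replicate 2 of MST-312 at 4 h.

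MST-312 cells started lower. At 0 h, 6 of 8 genes were below untreated cells and MS4A1 was above by its brightest probe, though below by its other detected probe (-0.84, adjusted p = 3.79e-05) (59.3% of all genes called, 31.7% as lower and 27.6% as higher). Fewer differences passed at 4 h, where 2 were higher and 2 lower (59.4% called, 26.5% as higher and 32.9% as lower), and at 8 h, where 2 were higher and 1 lower (57.7% called, 25.6% as higher and 32.2% as lower). At 24 h there were 3 higher and 4 lower (61.8% called, 28.9% as higher and 32.9% as lower). The higher genes were CD79A and MS4A1 at 8 h, with CD79B added at 24 h. For CD79A and MS4A1 at 8 and 24 h, and for CD79B at 24 h, this held by the brightest probe only. None of the gene's other detected probes passed as higher there. At 8 h both other CD79B probes passed as higher (0.29, adjusted p = 0.00411, and 0.44, adjusted p = 0.0110), while its brightest probe did not pass. MS4A1 also counted as higher at 4 h, and its other detected probe was lower there, at 8 h and at 24 h. The change since 0 h differed between the treatments for 5 of 8 genes at 4 h (22.7% of all genes called, 11.3% as higher), for 2 at 8 h (20.1% called, 10.1% as higher) and for 4 at 24 h (30.0% called, 14.5% as higher). All 11 of these differences were positive, that is, the level fell less, or ended higher relative to its start, with MST-312.

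**Figure D1:**
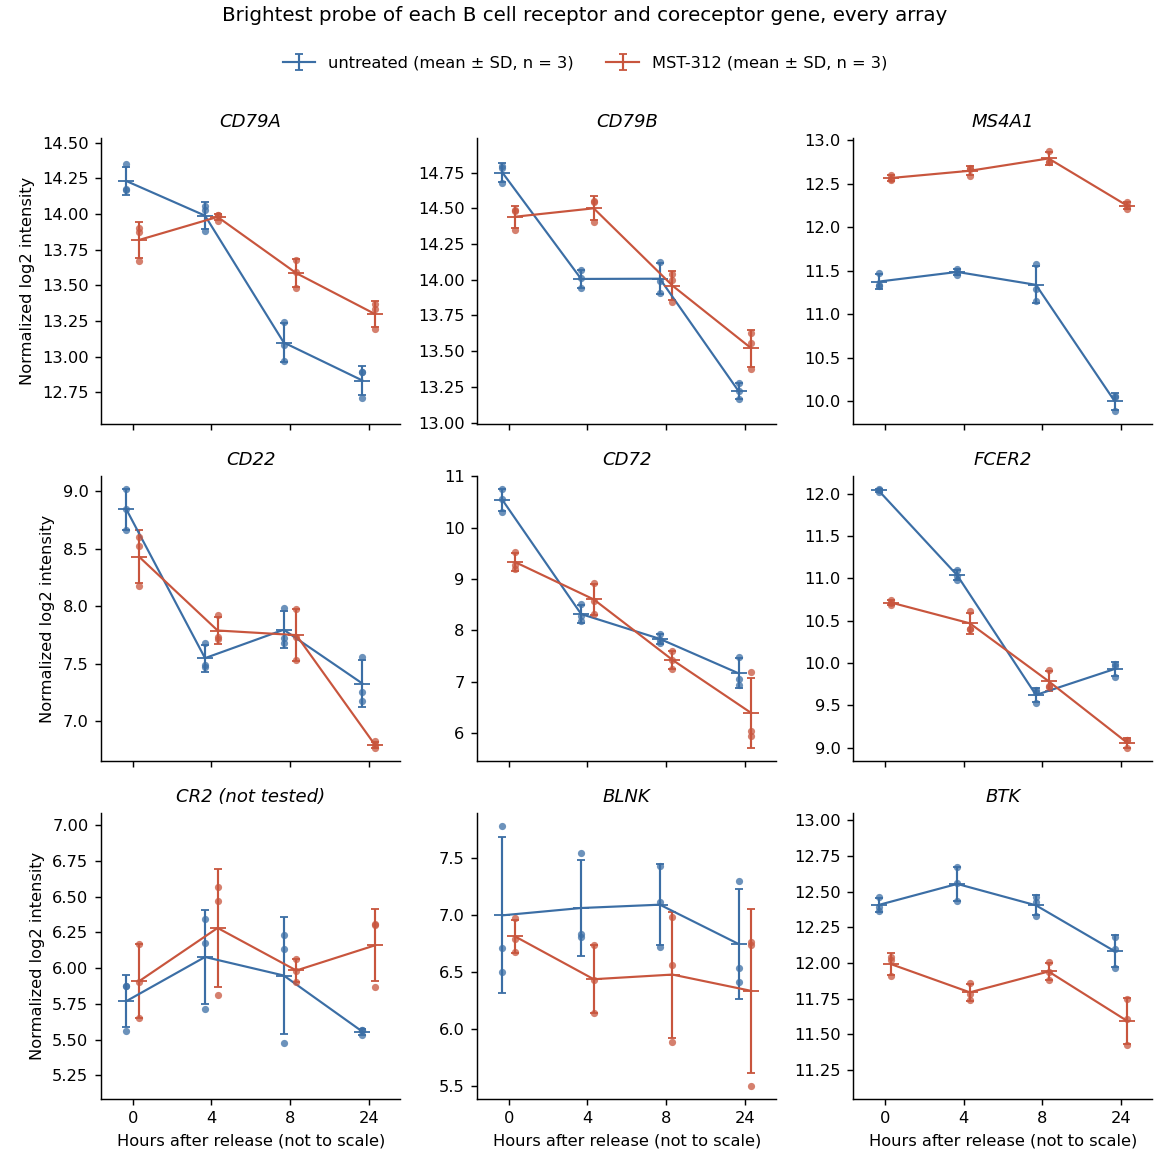
Log2 intensity of the brightest probe of each of the 9 genes on every array, by hours after release (axis not to scale), for untreated and MST-312 cells; points are arrays and bars are means ± SD of 3. CD72 and FCER2 start near 10.54 and 12.04 in untreated cells and fall in both treatments, while the brightest MS4A1 probe lies higher on all MST-312 arrays than on the untreated arrays of the same time; its other detected probe lies lower there.

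CD79A, the alpha chain of the signalling pair, fell after release, and less so with MST-312. In untreated cells its level on the 3 arrays was 14.35, 14.18 and 14.17 at 0 h, 14.03, 14.05 and 13.88 at 4 h, 13.25, 13.08 and 12.97 at 8 h, and 12.90, 12.71 and 12.89 at 24 h. In MST-312 cells it was 13.90, 13.88 and 13.67 at 0 h, 13.99, 13.95 and 13.99 at 4 h, 13.68, 13.48 and 13.59 at 8 h, and 13.34, 13.19 and 13.37 at 24 h. The treatments thus stood in opposite order at the ends of the series, with untreated arrays all higher at 0 h and all lower at 8 and 24 h. The untreated fall was -1.13 ± 0.09 at 8 h (adjusted p = 2.65e-09) and -1.40 ± 0.09 at 24 h (adjusted p = 6.63e-11), against -0.52 ± 0.09 at 24 h with MST-312 (adjusted p = 7.53e-05). MST-312 differed from untreated by -0.41 ± 0.09 at 0 h (adjusted p = 0.000591), by -0.01 at 4 h (adjusted p = 0.940), by 0.49 at 8 h (adjusted p = 0.000124) and by 0.47 at 24 h (adjusted p = 0.000172). The change since 0 h differed by 0.90 ± 0.13 at 8 h (adjusted p = 5.10e-05) and by 0.88 at 24 h (adjusted p = 3.22e-05).

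Both other CD79A probes fell at 24 h as well, but their comparison of the treatments was not the same. Against untreated cells, probe ILMN_1659227 was lower with MST-312 at 0 h (-0.61, adjusted p = 0.000582) and 4 h (-0.55, adjusted p = 0.00129), and was -0.11 at 24 h (adjusted p = 0.495). Probe ILMN_2410371 was lower at 4 h (-0.66, adjusted p = 0.0139) and at 24 h (-0.52, adjusted p = 0.0490), where the brightest probe was higher. At 8 h, where the brightest probe was higher with MST-312, they gave 0.03 (adjusted p = 0.882) and 0.27 (adjusted p = 0.327). The differences in change since 0 h were 0.63 (adjusted p = 0.0257) and 0.69 (adjusted p = 0.149) at 8 h and 0.49 (adjusted p = 0.0621) and -0.10 at 24 h. The 24 h fall itself was -1.40, -1.47 and -0.85 over the 3 probes in untreated cells and -0.52, -0.98 and -0.95 in MST-312 cells, all passing. The higher level of CD79A at 24 h with MST-312 therefore held for 1 of its 3 probes, and it also missed the threshold under median scaling (0.21, adjusted p = 0.0766).

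Smaller CD79A changes sat near the threshold. The 4 h fall in untreated cells was -0.24 (adjusted p = 0.0365) and was lost without untreated 0 h replicate 1 (-0.18, adjusted p = 0.158), 4 h replicate 1 (-0.26, adjusted p = 0.0511) or 4 h replicate 3 (-0.19, adjusted p = 0.147). It was lost as well under median scaling (-0.20, adjusted p = 0.118), without the detection filter (adjusted p = 0.0567), with only the arrays of the comparison (adjusted p = 0.0916) and with the mean of the probes (-0.09, adjusted p = 0.494), and the other probes gave 0.0034 and -0.03. The 8 h fall in MST-312 cells was -0.23 (adjusted p = 0.0485) and was lost in 16 of the 24 fits that each left out 1 array. The difference in change at 4 h was 0.40 ± 0.13 (adjusted p = 0.0289). It was lost without untreated 0 h replicate 1 (0.35), untreated 4 h replicate 3 (0.35), MST-312 0 h replicate 3 (0.33), or MST-312 4 h replicate 1 or 3 (both 0.40). It was also lost under median scaling (0.24, adjusted p = 0.279) and with the mean of the probes (0.07, adjusted p = 0.781), and the other probes gave 0.05 (adjusted p = 0.906) and -0.24 (adjusted p = 0.678).

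Promoter windows from RefSeq (GRCh38.p14) were used for 7 of the 9 genes, in 9 windows, and 4 of these are printed here: CD79A as the gene of the receptor itself, and CD72 and FCER2 as the genes with the deepest falls. Each is the 250 bases before the gene's start, read 5′ to 3′ on the gene's strand. Capitals mark 2 motifs, searched on both strands: AGGAAG (reverse CTTCCT), a core bound by ETS factors such as PU.1, and TGGGAA (reverse TTCCCA), the core of RBPJ, the DNA-binding partner of NOTCH and of the viral protein EBNA2. The CD79A window is chr19:41877029-41877278 on the plus strand and the CD72 window is chr9:35618414-35618663 on the minus strand. The FCER2 windows, of 2 annotated starts, are chr19:7699442-7699691 and chr19:7702132-7702381 on the minus strand.
CD79A: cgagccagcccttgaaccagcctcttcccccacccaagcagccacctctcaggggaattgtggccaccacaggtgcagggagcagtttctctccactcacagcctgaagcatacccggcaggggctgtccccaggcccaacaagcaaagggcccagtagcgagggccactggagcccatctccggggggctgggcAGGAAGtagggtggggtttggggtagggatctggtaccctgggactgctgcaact
CD72: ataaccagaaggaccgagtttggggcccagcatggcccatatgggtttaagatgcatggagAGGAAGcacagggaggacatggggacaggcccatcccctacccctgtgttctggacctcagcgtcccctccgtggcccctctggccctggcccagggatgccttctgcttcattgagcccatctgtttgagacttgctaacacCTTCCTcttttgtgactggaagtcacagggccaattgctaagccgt
FCER2 start 1: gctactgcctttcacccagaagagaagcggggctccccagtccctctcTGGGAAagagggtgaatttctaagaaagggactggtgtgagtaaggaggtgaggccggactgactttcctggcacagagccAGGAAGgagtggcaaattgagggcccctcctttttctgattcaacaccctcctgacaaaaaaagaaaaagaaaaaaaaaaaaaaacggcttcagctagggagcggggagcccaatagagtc
FCER2 start 2: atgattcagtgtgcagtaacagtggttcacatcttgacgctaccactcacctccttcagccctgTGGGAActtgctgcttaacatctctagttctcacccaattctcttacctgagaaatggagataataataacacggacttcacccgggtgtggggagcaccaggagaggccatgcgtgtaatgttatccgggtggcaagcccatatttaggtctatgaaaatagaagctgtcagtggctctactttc
CD79A held AGGAAG with its first base 55 bases before the start, CD72 held it at 189 and its reverse at 46, and the first FCER2 window held it at 121. TGGGAA stood at 202 in the first FCER2 window and at 186 in the second. Over all 35116 RefSeq windows of this length, 28.7% held AGGAAG on either strand and 20.8% held TGGGAA, so these matches are common and describe the windows only. Neither CACGTG, the E-box bound by MYC and its partners (6.34% of all windows), nor the octamer ATGCAAAT (1.63%) was in these 4 windows. The motifs do not overlap each other.

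CD79B, the beta chain, fell by 4 h in untreated cells and later with MST-312. In untreated cells its level was 14.67, 14.80 and 14.78 at 0 h, 14.01, 14.07 and 13.94 at 4 h, 14.12, 13.91 and 13.99 at 8 h, and 13.22, 13.17 and 13.27 at 24 h. In MST-312 cells it was 14.49, 14.48 and 14.35 at 0 h, 14.55, 14.55 and 14.40 at 4 h, 14.04, 13.84 and 14.00 at 8 h, and 13.55, 13.38 and 13.63 at 24 h. Untreated arrays had all dropped by 4 h, whereas the MST-312 arrays at 4 h overlapped those at 0 h and were all lower only from 8 h. The change at 4 h was -0.74 ± 0.08 in untreated cells (adjusted p = 4.09e-07) and 0.06 in MST-312 cells (adjusted p = 0.628), a difference of 0.80 ± 0.12 (adjusted p = 5.57e-05). At 24 h the falls were -1.53 (adjusted p = 4.83e-12) and -0.92 (adjusted p = 1.55e-08), a difference of 0.61 ± 0.12 (adjusted p = 0.000605). That difference missed the threshold under median scaling (0.25, adjusted p = 0.220), and by the other probes it was 0.25 and 0.16, neither passing.

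All 3 CD79B probes gave the 4 h result. MST-312 was higher than untreated at 4 h by 0.49, 0.82 and 1.19 over the probes (adjusted p = 3.57e-05, 2.22e-08 and 3.50e-07), and the difference in change since 0 h was 0.80, 0.89 and 1.07, all passing. The probes parted at 0 h, where the brightest was lower with MST-312 (-0.31 ± 0.08, adjusted p = 0.00342) and the others were -0.07 (adjusted p = 0.501) and 0.11 (adjusted p = 0.519). They parted at 8 h too, at -0.05 (adjusted p = 0.645) against 0.29 (adjusted p = 0.00411) and 0.44 (adjusted p = 0.0110). At 24 h the brightest probe was higher with MST-312 by 0.30 (adjusted p = 0.00407), the others gave 0.18 (adjusted p = 0.0535) and 0.27 (adjusted p = 0.104), and the call was lost under median scaling (0.07) and cyclic loess (0.13). Across the 24 arrays the CD79B probes correlated with each other at r = 0.90 to 0.95 and the CD79A probes at r = 0.62 to 0.85, which describes probes sharing arrays.

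**Figure D2:**
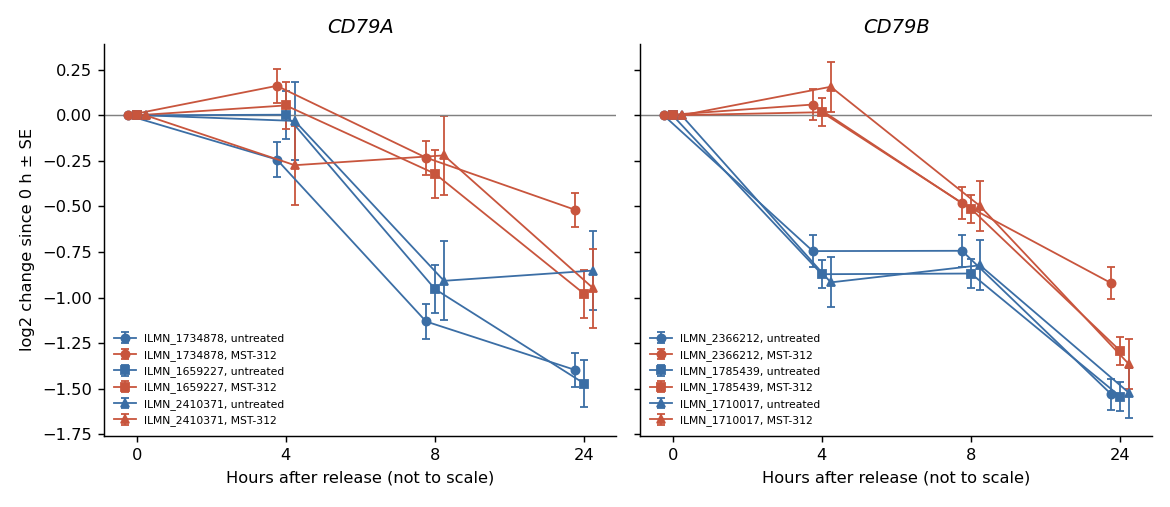
Log2 change since 0 h ± SE of every CD79A and CD79B probe, by hours after release (axis not to scale), in untreated and MST-312 cells. All 3 CD79B probes lie lower in untreated than in MST-312 cells at 4 h, and all 6 probes are below 0 at 24 h in both treatments.

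CD22 and CD72 are inhibitory coreceptors, CD22 a lectin for sialic acid and CD72 a C-type lectin-like receptor, and both fell after release. CD22 stood at 8.84, 8.67 and 9.02 on the untreated arrays at 0 h and at 7.49, 7.47 and 7.68 at 4 h. It then ranged over 7.68 to 7.98 at 8 h and 7.17 to 7.56 at 24 h. With MST-312 it was 8.17, 8.52 and 8.60 at 0 h, 7.92, 7.72 and 7.73 at 4 h, 7.53 to 7.98 at 8 h and 6.77 to 6.82 at 24 h. Most of the untreated drop was thus seen by 4 h, and the lowest group of all 8 was MST-312 at 24 h.

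The CD22 change at 4 h was -1.30 ± 0.13 in untreated cells (adjusted p = 1.34e-07) and -0.64 with MST-312 (adjusted p = 0.000809), a difference of 0.65 ± 0.19 (adjusted p = 0.0176). At 24 h the falls were -1.52 (adjusted p = 6.14e-09) and -1.64 (adjusted p = 3.62e-09), and their difference of -0.12 ± 0.19 did not pass (adjusted p = 0.678). CD22 was lower with MST-312 at 0 h (-0.41, adjusted p = 0.0126) and at 24 h (-0.53, adjusted p = 0.00180), but not at 4 h (0.24, adjusted p = 0.133) or 8 h (-0.05, adjusted p = 0.786). The 0 h call was lost without untreated 0 h replicate 3 (-0.32, adjusted p = 0.0715) or MST-312 0 h replicate 1 (-0.28, adjusted p = 0.0967). The 4 h difference in change was lost without the same arrays (0.56, adjusted p = 0.0522, and 0.52, adjusted p = 0.0586) and under median scaling (0.48, adjusted p = 0.125).

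CD72 had the deepest fall of the 8 tested genes. Its level was 10.74, 10.56 and 10.31 in untreated cells at 0 h, 8.50, 8.27 and 8.17 at 4 h, 7.93, 7.75 and 7.81 at 8 h, and 7.49, 6.94 and 7.06 at 24 h. In MST-312 cells it was 9.26, 9.53 and 9.19 at 0 h, 8.92, 8.56 and 8.32 at 4 h, 7.60, 7.24 and 7.42 at 8 h, and 7.18, 6.03 and 5.95 at 24 h. The treatments were apart at 0 h, overlapped at 4 h, were narrowly apart at 8 h and overlapped again at 24 h, where 1 MST-312 array stood more than a unit above the other 2.

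By 24 h CD72 was 10.4-fold below its 0 h level in untreated cells (-3.38 ± 0.24, adjusted p = 1.97e-10) and 7.68-fold below it with MST-312 (-2.94, adjusted p = 2.99e-09). The MST-312 arrays at 24 h were near background, with detection p of 0.0338 and 0.0429 on 2 of the 3, and without background correction the changes were -2.69 and -1.99, so the folds depend on that step. The early fall was -2.22 at 4 h in untreated cells (adjusted p = 2.01e-07) and -0.73 with MST-312 (adjusted p = 0.0212), a difference of 1.50 ± 0.34 (adjusted p = 0.00290). At 8 and 24 h the differences in change were 0.80 (adjusted p = 0.103) and 0.44 (adjusted p = 0.361). With arrays of the same replicate number at a time as a block, that at 8 h passed (adjusted p = 0.0104).

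Between the treatments, CD72 was lower with MST-312 at 0 h (-1.21 ± 0.24, adjusted p = 0.000183) and at 24 h (-0.77, adjusted p = 0.00811), gave 0.29 at 4 h (adjusted p = 0.318), and gave -0.41 at 8 h (adjusted p = 0.150, or 0.0194 with the block). The 24 h value rested on few arrays. It was -0.61 without untreated replicate 1 (adjusted p = 0.0521), -0.60 without MST-312 replicate 2 (adjusted p = 0.0554) and -0.55 without MST-312 replicate 3 (adjusted p = 0.0644), and it was -1.17 without MST-312 replicate 1 (adjusted p = 1.60e-05). In a fit of only those 6 arrays it did not pass (adjusted p = 0.0711). The MST-312 fall at 4 h was lost without 0 h replicate 2 (-0.63), 4 h replicate 2 (-0.71) or 4 h replicate 3 (-0.59).

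FCER2 (CD23), the low-affinity IgE receptor, fell after 0 h in both treatments and was measured with little spread. In untreated cells it was 12.02, 12.06 and 12.04 at 0 h, 11.09, 10.98 and 11.03 at 4 h, 9.68, 9.53 and 9.65 at 8 h, and 9.84, 9.99 and 9.96 at 24 h. In MST-312 cells it was 10.71, 10.74 and 10.69 at 0 h, 10.40, 10.39 and 10.61 at 4 h, 9.92, 9.72 and 9.71 at 8 h, and 8.99, 9.09 and 9.09 at 24 h. At every time the arrays of the treatments did not overlap: untreated cells were higher at 0, 4 and 24 h and slightly lower at 8 h.

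The FCER2 falls at 4, 8 and 24 h were -1.0, -2.42 and -2.11 ± 0.08 in untreated cells (adjusted p = 2.33e-09, 3.72e-15 and 2.02e-14) and -0.25, -0.93 and -1.66 in MST-312 cells (adjusted p = 0.0183, 1.13e-08 and 1.24e-12). These changes differed at all 3 times, by 0.76 ± 0.11 (adjusted p = 4.87e-05), 1.49 (adjusted p = 1.06e-08) and 0.45 (adjusted p = 0.00404). MST-312 cells were below untreated cells at 0 h (-1.32 ± 0.08, or 2.50-fold, adjusted p = 1.26e-11), at 4 h (-0.57, adjusted p = 2.72e-06) and at 24 h (-0.87, adjusted p = 5.91e-09), while 0.16 at 8 h did not pass (adjusted p = 0.0818). The 4 h fall with MST-312 was lost without MST-312 0 h replicate 2 (-0.23), 4 h replicate 1 (-0.21) or 4 h replicate 2 (-0.21).

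CR2 (CD21), the complement receptor of B cells, was barely detected and not tested. Of its 3 probes the brightest, ILMN_1684724, was detected on 14 of 24 arrays and the others on 1 and 3. Group means of the brightest lay between 5.56 in untreated cells at 24 h, where no array detected it, and 6.28 in MST-312 cells at 4 h. In a fit without the filter on detection, only MST-312 against untreated at 24 h passed (0.60 ± 0.21, adjusted p = 0.0346). Since the untreated group there was not detected, this is a comparison with background.

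**Figure D3:**
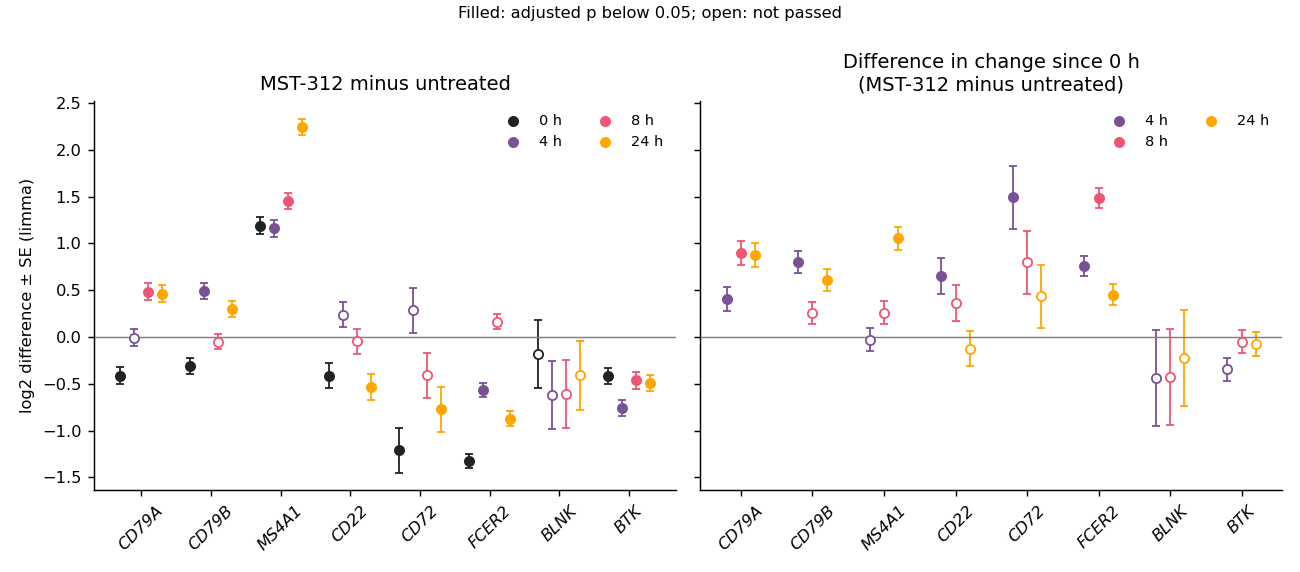
Log2 difference ± SE between MST-312 and untreated cells at each time (left) and difference between the treatments in the change since 0 h (right) for the 8 tested genes, brightest probe; filled points passed an adjusted p of 0.05 and open points did not. BTK lies below 0 at all 4 times on the left, and every filled point on the right is above 0.

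MS4A1 (CD20), a tetraspan surface protein and the target of rituximab, gave opposite answers from its probes. Probe ILMN_1776939, which the annotation pairs with transcript NM_152866, was the brighter by mean and stands for the gene in the counts above. In untreated cells it was 11.32, 11.47 and 11.33 at 0 h, 11.45, 11.52 and 11.49 at 4 h, 11.16, 11.57 and 11.29 at 8 h, and 9.89, 10.06 and 10.05 at 24 h. In MST-312 cells it was 12.60, 12.55 and 12.54 at 0 h, 12.59, 12.68 and 12.67 at 4 h, 12.75, 12.87 and 12.75 at 8 h, and 12.21, 12.28 and 12.25 at 24 h. Every MST-312 array was above every untreated array.

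Probe ILMN_2401714, paired with NM_021950, went the other way. It was 12.30, 12.12 and 12.33 in untreated cells at 0 h, 12.04, 11.97 and 12.01 at 4 h, 11.64, 11.84 and 11.85 at 8 h, and 11.14, 11.30 and 11.46 at 24 h. With MST-312 it was 11.50, 11.07 and 11.65 at 0 h, 10.79, 10.50 and 10.97 at 4 h, 10.62, 10.88 and 10.84 at 8 h, and 10.43, 10.70 and 10.70 at 24 h. At each time its MST-312 arrays were all below its untreated arrays. A further MS4A1 probe, ILMN_1697830, was detected on 0 of 24 arrays, though the annotation pairs it with NM_152866 as well. The paired accession alone therefore does not set the probes apart.

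The differences between MST-312 and untreated at 0, 4, 8 and 24 h were 1.19, 1.16, 1.45 and 2.25 ± 0.09 by the first probe (adjusted p = 3.54e-10, 5.20e-10, 2.26e-11 and 2.29e-14), the last being 4.74-fold. By the other probe they were -0.84, -1.25, -0.99 and -0.69 (adjusted p = 3.79e-05, 2.35e-07, 5.64e-06 and 0.000318). The log2 ratio of the first probe to the other on the same array averaged -0.88 ± 0.19, -0.52 ± 0.08, -0.44 ± 0.15 and -1.30 ± 0.10 in untreated cells (SD, n = 3) and 1.16 ± 0.30, 1.90 ± 0.26, 2.01 ± 0.11 and 1.64 ± 0.12 with MST-312. The ratio was formed after both probes' values had been seen and is a description with no test. Its size at 1 group has no meaning, since the probes differ, and only differences between groups can be read: averaged over the times it was higher by 2.46 with MST-312. Over the 24 arrays the probes correlated at r = -0.48. The exons that each probe reads are not in the sources used here, so the direction of MS4A1 with MST-312 depends on the probe and is not given for the gene.

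Both MS4A1 probes fell by 24 h after release. In untreated cells the falls were -1.37 (adjusted p = 4.62e-11) and -0.95 (adjusted p = 9.11e-06), and in MST-312 cells -0.32 (adjusted p = 0.00466) and -0.80 (adjusted p = 9.83e-05). The first probe showed the untreated fall only between 8 and 24 h, with -0.04 at 8 h (adjusted p = 0.757), and its change at 24 h differed between the treatments by 1.06 ± 0.12 (adjusted p = 2.19e-06). The other probe was already lower at 8 h in untreated cells (-0.47, adjusted p = 0.00962) and at 4 h in MST-312 cells (-0.66, adjusted p = 0.00132), and its 24 h difference in change of 0.15 did not pass. The 24 h fall of the first probe with MST-312 missed the threshold under median scaling (-0.11). Its rise at 8 h in MST-312 cells (0.22, adjusted p = 0.0470) was lost in 20 of the 24 fits that each left out 1 array.

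**Figure D4:**
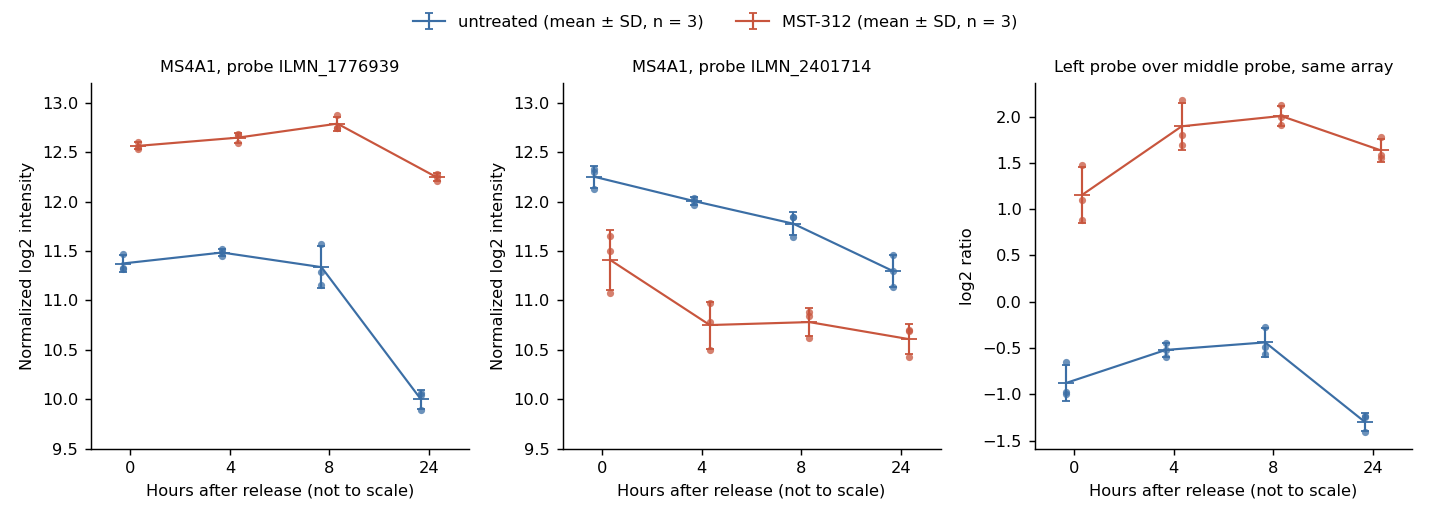
Log2 intensity of the 2 detected MS4A1 probes on every array (left, ILMN_1776939; middle, ILMN_2401714) and the log2 ratio of the left to the middle probe on the same array (right), by hours after release (axis not to scale); bars are means ± SD of 3. MST-312 arrays are above untreated arrays on the left and below them in the middle, and the ratio is higher on MST-312 arrays at each time.

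BTK, the kinase that activates phospholipase C gamma, was lower with MST-312 at all 4 times. Its untreated levels were 12.46, 12.37 and 12.39 at 0 h, 12.67, 12.56 and 12.43 at 4 h, 12.42, 12.33 and 12.46 at 8 h, and 11.96, 12.10 and 12.18 at 24 h. With MST-312 they were 12.04, 11.91 and 12.02 at 0 h, 11.78, 11.74 and 11.86 at 4 h, 11.88, 11.94 and 12.00 at 8 h, and 11.61, 11.42 and 11.75 at 24 h. No MST-312 array reached an untreated array of its time. The differences were -0.41, -0.76, -0.46 and -0.49 ± 0.09 (adjusted p = 0.000381, 2.47e-07, 0.000130 and 6.38e-05), the deepest being 1.69-fold. Under median scaling they were larger at 0 h (-0.67), 8 h (-0.81) and 24 h (-0.74), and the value at 4 h is not given here. That scaling also moved the median of all genes, to -0.14, -0.26 and -0.17 at 0, 8 and 24 h.

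BTK changed little over the release times. It fell by 24 h, with changes of -0.32 in untreated cells (adjusted p = 0.00332) and -0.40 with MST-312 (adjusted p = 0.000718), and neither fall passed under median scaling (-0.08 and -0.15). At 4 and 8 h no change passed in either treatment. The changes since 0 h did not pass a test of their difference: -0.35 ± 0.12 at 4 h (adjusted p = 0.0507, or 0.0447 with the block), -0.05 at 8 h and -0.07 at 24 h.

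BLNK, the adaptor between SYK and BTK, passed in none of the 13 comparisons in the fit without the block. Its level was 6.71, 6.50 and 7.78 in untreated cells at 0 h and 6.41, 6.53 and 7.29 at 24 h, and 6.68, 6.79 and 6.97 with MST-312 at 0 h and 5.50, 6.74 and 6.77 at 24 h. Spread within groups reached an SD of 0.72, and the SE of a difference was 0.36. Against untreated cells the MST-312 values were -0.18, -0.62, -0.61 and -0.41 at 0, 4, 8 and 24 h (adjusted p = 0.684, 0.150, 0.159 and 0.343). With replicate numbers at a time as a block, those at 4 and 8 h passed (adjusted p = 0.0328 and 0.0363). BLNK was detected on 23 of 24 arrays, missing 1 of MST-312 at 24 h.

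The order of the 8 groups, from high to low, differed between genes. By the brightest probe, untreated cells at 0 h were highest for CD79A, CD79B, CD22, CD72 and FCER2, with no overlap with the next group. The share of all genes with such an order was not computed. The lowest group was untreated at 24 h for CD79A, CD79B and the first MS4A1 probe, and MST-312 at 24 h for CD22, CD72, FCER2, BLNK and BTK. Other probes of CD79A, CD79B and MS4A1 gave other orders. MS4A1 probe ILMN_2401714 was highest in untreated cells at 0 h, with no overlap with the next group, and lowest by mean in MST-312 cells at 24 h. CD79A probe ILMN_1659227 was highest in untreated cells at 4 h, and CD79B probe ILMN_1710017 in MST-312 cells at 4 h. For CD79B probe ILMN_1785439 untreated cells at 0 h overlapped the next group. Both other CD79A probes were lowest in MST-312 cells at 24 h. In the middle of the order some neighbours overlapped and so were not ranked by their arrays. For CD79A these were untreated and MST-312 cells at 4 h, MST-312 at 0 and 8 h, and MST-312 at 24 h with untreated at 8 h. For CD79B they were MST-312 at 4 and 0 h, and untreated at 8 h, untreated at 4 h and MST-312 at 8 h. For CD22 the 4 and 8 h groups of both treatments and untreated at 24 h ran into each other. For CD72 the 4 h groups overlapped, and so did MST-312 at 8 h with untreated at 24 h, and the latter with MST-312 at 24 h. For BTK the untreated groups at 4, 0 and 8 h overlapped in turn, as did untreated at 24 h, MST-312 at 0 h and MST-312 at 8 h, and MST-312 at 4 h with MST-312 at 24 h. For BLNK all neighbouring groups overlapped, and for FCER2 only untreated at 24 h and MST-312 at 8 h did.

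Across the 24 arrays, which share normalization and the 8 groups, CD22 and CD72 had r = 0.91, CD72 and FCER2 r = 0.90, CD79B and CD72 r = 0.87, CD79A and CD79B r = 0.85 and CD79B and CD22 r = 0.82. The first MS4A1 probe had r = 0.47 with CD79A, 0.46 with CD79B, 0.10 with CD22, 0.06 with CD72, -0.10 with FCER2, -0.28 with BLNK and -0.49 with BTK. Among all tested genes the 3 most like each member by Pearson r were TINF2 (0.962), HLA-H (0.936) and FNDC5 (0.935) for CD79A, and FGD3 (0.976), ZFP36 (0.968) and ARHGAP45 (0.949) for CD79B. For CD72 they were PLAC8 (0.967), IL10RB (0.958) and HDAC6 (0.956), for FCER2 LRP10 (0.968), CBLN3 (0.960) and CNN2 (0.959), and for CD22 LTB (0.913), CD72 itself (0.913) and GNG7 (0.911). CHKA (0.960), EEIG1 (0.957) and HRK (0.956) were nearest the first MS4A1 probe, ZNF627 (0.967), SERGEF (0.948) and LRRK1 (0.948) nearest BTK, and GIMAP2 (0.861), ATP11B (0.855) and ATMIN (0.833) nearest BLNK. These are descriptions of 24 points in 8 groups.

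Other genes of the pathway moved in the same direction more often than not. Their lists were chosen with earlier results of these data known, so the counts here and below describe these lists only. Of 28 listed genes that carry the receptor's signal, 20 were tested. At 24 h after release 18 fell and 0 rose in untreated cells (median -0.93; 30.5% of all tested genes fell and 29.0% rose), and 15 fell and 1 rose in MST-312 cells (median -0.87; 26.5% and 24.5% of all genes). RASGRP3, which activates RAS downstream of diacylglycerol, changed by -1.71 in untreated and -2.74 in MST-312 cells. PRKCB, the protein kinase C of this pathway, changed by -1.43 and -2.16, and the SRC-family kinase BLK by -1.59 and -1.47. SYK, the kinase that binds CD79A and CD79B, fell by 2.18 with MST-312, and VAV1, an exchange factor for RAC, fell by 1.62 in untreated cells.

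In the comparison of the treatments, 14 of the 20 signalling genes were lower with MST-312 at 0 h and 1 was higher (median -0.63), where 31.7% of all genes were lower and 27.6% higher. At 24 h 13 were lower and 2 higher (median -0.45), where 32.9% of all genes were lower and 28.9% higher. PLCG2, the phospholipase that BTK activates, was lower at 0 h (-1.13, adjusted p = 7.03e-10) and at 24 h (-1.38, adjusted p = 3.00e-11). PIK3R1, the regulatory subunit of PI3 kinase, was lower at 0 h (-1.57), and SYK at 24 h (-2.03, adjusted p = 7.96e-10). MALT1, a protease on the way to NF-kB, gave -1.20 at 0 h by its brightest probe and -0.56 by another (adjusted p = 0.0795). RASGRP3 was lower at both times (-1.37 and -2.40).

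Of 26 listed inhibitors of the signal, 18 were tested. After 24 h of release 13 fell and 1 rose in untreated cells (median -0.58, against 30.5% and 29.0% of all genes), and 11 fell and 1 rose with MST-312 (median -0.53, against 26.5% and 24.5%). With MST-312, 9 were lower and 3 higher at 0 h (median -0.28, against 31.7% lower and 27.6% higher of all genes), and 10 were lower and 5 higher at 24 h (median -0.40, against 32.9% and 28.9%). SIGLEC10, an inhibitory lectin related to CD22, was lower at 0 h (-2.68) and at 24 h (-1.35). PTPN6 encodes SHP-1, the phosphatase that CD22 and CD72 recruit, and was lower at 0 h (-1.75). At 24 h its probes parted, at -1.07 (adjusted p = 2.00e-07) and 0.18 (adjusted p = 0.376). SPRY2, an inhibitor of the RAS pathway, was higher with MST-312 at 24 h by 2.35 and fell after 24 h of release in untreated cells (-1.45).

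Of 24 listed B cell surface genes outside the set, 22 were tested. At 24 h after release 17 fell and 1 rose in untreated cells (median -1.19, against 30.5% and 29.0% of all genes), and 16 fell and 0 rose in MST-312 cells (median -1.10, against 26.5% and 24.5%). LY86, the partner of the toll-like protein CD180, changed by -1.87 and -1.71, and CD24, a small anchored glycoprotein, by -1.70 and -2.45. With MST-312, 16 were lower and 3 higher at 0 h (median -0.62, against 31.7% lower and 27.6% higher of all genes), and 14 lower and 2 higher at 24 h (median -0.43, against 32.9% and 28.9%). IFITM1, an interferon-induced membrane protein, was lower at 0 h (-2.44). TNFRSF13B (TACI), a receptor for BAFF and APRIL, was lower at 0 and 24 h (-1.76 and -1.77), and SLAMF7, a receptor of activated lymphocytes, was higher (1.52 and 2.01). Of 17 listed immunoglobulin and surrogate light chain genes only VPREB1, VPREB3, IGLL1 and JCHAIN were tested. At 24 h after release 3 of these fell in untreated cells (30.5% of all genes fell) and all 4 with MST-312 (26.5%), among them VPREB1, a part of the surrogate light chain (-1.89 and -1.94). The listed immunoglobulin heavy chain genes were not among the tested genes.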

How the data were processed

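Total RNA of P493 cells was labelled as biotinylated cRNA for Illumina arrays, per the labels' protocols (24 arrays). The authors deposited raw values, for each array 1 intensity and 1 detection p-value per probe (47322 probes), and processed intensity values, which served as an alternative and whose normalization method no source here names. The raw and processed values of an array ranked its probes identically (rank correlation 1), and no array was a duplicate of another.

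Intensities were background-corrected (normexp from the detection p-values, offset 16), quantile-normalized and put on the log2 scale by limma 3.58.1 under R 4.3.3 (function neqc). A probe passed if some group had it detected (p below 0.05) on each of its 3 arrays (17882 probes, of which 13518 had 1 symbol in the platform annotation). The brightest probe stood for its gene, giving 10246 genes. One limma model of 8 group means over 24 arrays (16 residual and 3.78 prior degrees of freedom) gave 13 comparisons with no replicate block, two-sided, with Benjamini-Hochberg adjustment over all genes. The script was tested on simulated data. The number of arrays limits the precision.

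The 9 genes and the pathway lists were chosen with earlier results of these data known. The text names the 9 genes, MYC, up to 4 changed genes per list with the largest difference in the 0 h and 24 h treatment comparisons and the 24 h release comparisons (a part of these is given), and the 3 tested genes most correlated with each member.

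Arrays of the 2 treatments with the same replicate number at a time deviated together from their group means in all 12 pairs (r = 0.110 to 0.378). These numbers may therefore pair the treatments. Between times of the same treatment 27 of 36 pairs were over 0.1, with a lowest r of -0.149 and a highest of 0.412. The numbers may thus link times as well. The main fit has no block, so it takes neither link into account. Release comparisons were not treated as paired, and a replicate block over all arrays was among the alternatives. Alternatives covered background correction, normalization, detection filter, probe choice, samples in the fit, variance model, array weights, replicate block and leaving out each array.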

Additional observations from a re-analysis of the deposited data

Results flagged for a closer look

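With 3 arrays per group no single array was tested as an outlier. The change since 0 h differed between the treatments, by a test of that difference in the limma model, in 11 cases among the 8 tested genes, all with a higher value for MST-312 cells. At 4 h the difference was 0.40 for CD79A (adjusted p = 0.0289), 0.80 for CD79B (adjusted p = 5.57e-05), 0.65 for CD22 (adjusted p = 0.0176), 1.50 for CD72 (adjusted p = 0.00290) and 0.76 for FCER2 (adjusted p = 4.87e-05). At 8 h it was 0.90 for CD79A (adjusted p = 5.10e-05) and 1.49 for FCER2 (adjusted p = 1.06e-08). At 24 h it was 0.88 for CD79A (adjusted p = 3.22e-05), 0.61 for CD79B (adjusted p = 0.000605), 1.06 for MS4A1 by its brightest probe (adjusted p = 2.19e-06) and 0.45 for FCER2 (adjusted p = 0.00404). The 0 h groups of both treatments enter all 3 times, so these are not separate pieces of evidence. The CD79A values at 4 and 24 h were of the opposite sign by probe ILMN_2410371, at -0.24 and -0.10, and the MS4A1 value was 0.15 by its other probe.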

How the results depend on the processing

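Of 104 differences (8 genes in 13 comparisons), 65 were called, and 47 of these in each of the 14 alternatives that could be fitted and the 24 fits leaving out 1 array. The other 18 lost the call or turned sign in at least 1, 15 of the 39 uncalled ones gained it in at least 1, and 24 were never called. These counts leave out fits by a gene's other single probes, such as the MS4A1 probe of opposite sign given below. A call among the 47 may therefore fail or turn sign by another probe. The count of genes called for MST-312 against untreated at 8 h was 5 in place of 3 under median scaling (2 higher, 3 lower) and with the replicate block within times. The count for the difference in change at 4 h was 3 in place of 5 under median scaling, and at 8 h 4 in place of 2 with array weights. The block within times added the calls given in the report for CD72, BLNK and BTK and changed no other call; it could not be fitted for release. Leaving out 1 array gave counts of 6 to 7, 4 to 4, 3 to 4 and 6 to 7 for the treatments at 0, 4, 8 and 24 h, 4 to 5, 5 to 5 and 7 to 7 for untreated release, 1 to 3, 4 to 6 and 7 to 7 for MST-312 release, and 4 to 6, 2 to 3 and 4 to 4 for the differences in change. Median scaling moved the median of all genes to -0.14, -0.29, -0.26 and -0.17 for the treatments at 0, 4, 8 and 24 h.

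Signs turned with the probe; the cause was not tested. For CD79A at 24 h between treatments, the mean of probes gave -0.056 and the single probes -0.11 and -0.52. Its untreated 4 h change was 0.0034 by ILMN_1659227, and its differences in change were -0.24 and -0.10 at 4 and 24 h by ILMN_2410371. CD79B between treatments was 0.11 at 0 h by ILMN_1710017, and at 8 h 0.23 by the mean, 0.29 and 0.44. MS4A1 between treatments was -0.84, -1.25, -0.99 and -0.69 by ILMN_2401714, and -0.046 at 4 h by the mean. Its MST-312 changes at 4 and 8 h were -0.29 and -0.20 by the mean and -0.66 and -0.63 by that probe. BLNK, the dimmest of the 8 tested genes of the set, was missed on 1 array, and its SE limits what could be called. Without background correction CD72 at 24 h between treatments was -0.39, and CD22 was -0.30.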
